A study of Rattus norvegicus with 12 samples.

Results

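Genes that set the balance between glucose release and glucose breakdown in liver were followed in newborn rats, 9 of the 10321 genes that had a probe bright enough to be tested. They were chosen by name, as every array probe annotated to Fbp1, Pck1, G6pc1, Slc37a4 and Slc2a2 (glucose output, 5 genes) or to Pfkfb1, Pfkl, Pklr and Pdk1 (glucose use, 4 genes). The names were chosen with earlier results of these data known. Each of the 9 had 1 probe and all 9 probes passed the filter on dim probes. Livers came from male Wistar rats of 1 day of age, 4 in each of 3 groups. The MLP dams were given a low protein diet in pregnancy, the MLP-F dams the same low protein diet with added folic acid, and the C dams a control diet with more protein. No group had folic acid added to the control diet. A single litter represented each diet, so the 4 pups of a group were littermates, the litter and the diet cannot be told apart, and every p-value below measures the spread among littermates.

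The liver keeps glucose in the blood by making it from lactate, glycerol and amino acids and by breaking down glycogen, and it burns or stores glucose after a meal. Both directions share most enzymes of glycolysis, and they part at a few steps where one enzyme runs forward and another runs back. Birth cuts off the glucose that crosses the placenta, and in newborn rodents the genes for glucose production are switched on within the first hours of life. Whole pieces of liver were measured, so fewer cells of a type and less RNA per cell cannot be told apart.

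Levels are on a re-expanded log2 scale, the deposited value v turned into 2 to the power v minus 16. On that scale 1 unit is read as about a doubling of bead intensity, a reading drawn from the values and stated in no source, and dim probes understate their change. Differences, standard errors (SE), 95% confidence intervals and adjusted p-values are from limma, fitted to all 12 livers and adjusted over 15753 probes, and a probe is called changed at an adjusted p under 0.05. Means are given ± SD with n = 4 livers a group.

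Between MLP and C livers 5 of the 9 genes were called changed, against 4.35% of all probes tested. Because the genes were chosen with earlier results known, the shares of all probes are given for scale, and no excess is read from them. Slc37a4, Pfkfb1 and Pdk1 were higher in MLP, where 2.27% of all probes were called higher, and Fbp1 and Pfkl were lower, where 2.08% of all probes were called lower. The same 5 genes had no overlap between the 4 MLP and the 4 C livers, which held for 12.2% of all probes. Neither role had calls in 1 direction alone, as glucose output had 1 gene higher and 1 lower of 5, and glucose use had 2 higher and 1 lower of 4. Between MLP-F and C livers Pfkfb1 alone was called, as higher, against 0.482% of all probes called, 0.190% called higher and 0.292% called lower. Between MLP and MLP-F livers Pdk1 was called higher and Fbp1 lower, against 6.58% of all probes called, 3.53% higher and 3.05% lower. The median difference over the 9 genes was 0.26 for MLP against C, where the median over all probes was 0.0037. It was -0.040 for MLP-F against C and 0.16 for MLP against MLP-F, where all probes had medians of 0.0044 and -0.0012. The comparisons share livers and are not independent of each other.

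Some livers stood apart from the rest of their group. Correlations over all kept probes ran from 0.990 to 0.993 among MLP livers, from 0.980 to 0.990 among MLP-F livers and from 0.977 to 0.989 among C livers, while the closest liver to MLP-F replicate 2 was a C liver, replicate 2 (0.993). Of 8 hepatocyte markers 6 had a probe, and apart from Apob, which was near the floor in all livers, each lay between 6.99 and 8.74 in every liver. The median of 8 skeletal muscle markers was 4.89 in C replicate 4 and at most 0.321 in every other liver. The median of 7 stellate cell and fibroblast markers was 3.98 in C replicate 1 and at most 1.86 elsewhere, and 2 keratinocyte markers were at a median of 3.53 in the same liver. The 4 lung epithelium markers had a median of 2.83 in C replicate 4. The median of 8 erythroid markers was 2.12 to 2.70 in MLP livers, 1.24 to 1.54 in MLP-F livers and 1.41 to 2.07 in C livers, but the 8 did not move together. Hbe1 and Alas2 were called higher in MLP than in C (2.44 and 0.34) and than in MLP-F (3.28 and 0.33), Ahsp lower in both (-0.51 and -0.46), Tfrc lower than in C (-0.44) and Hemgn lower than in MLP-F (-0.71). The median of 6 macrophage and Kupffer cell markers was 2.14 to 3.02 in MLP livers, 2.45 to 2.78 in MLP-F livers and 2.07 to 2.26 in C livers. Of these C1qc was called higher in MLP than in C (0.51) and than in MLP-F (0.75), and C1qb higher than in MLP-F (0.60). The macrophage list did not move together in MLP against MLP-F. C1qa (0.27), Marco (-0.056), Cd163 (-0.030) and Adgre1 (-0.031) were not called there. The endothelial marker Lyve1 was called higher in MLP than in MLP-F (0.53), while Tek was not called (-0.075). The endothelial median was 0.17 to 0.30 in MLP livers, 0.23 to 0.41 in MLP-F livers and 0.22 to 0.40 in C livers. The part of these cells in the results was not tested. Calls on the 9 genes were repeated without C replicates 1 and 4 together and without MLP-F replicate 2, and values are given at least where a call changed.

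**Figure D1:**
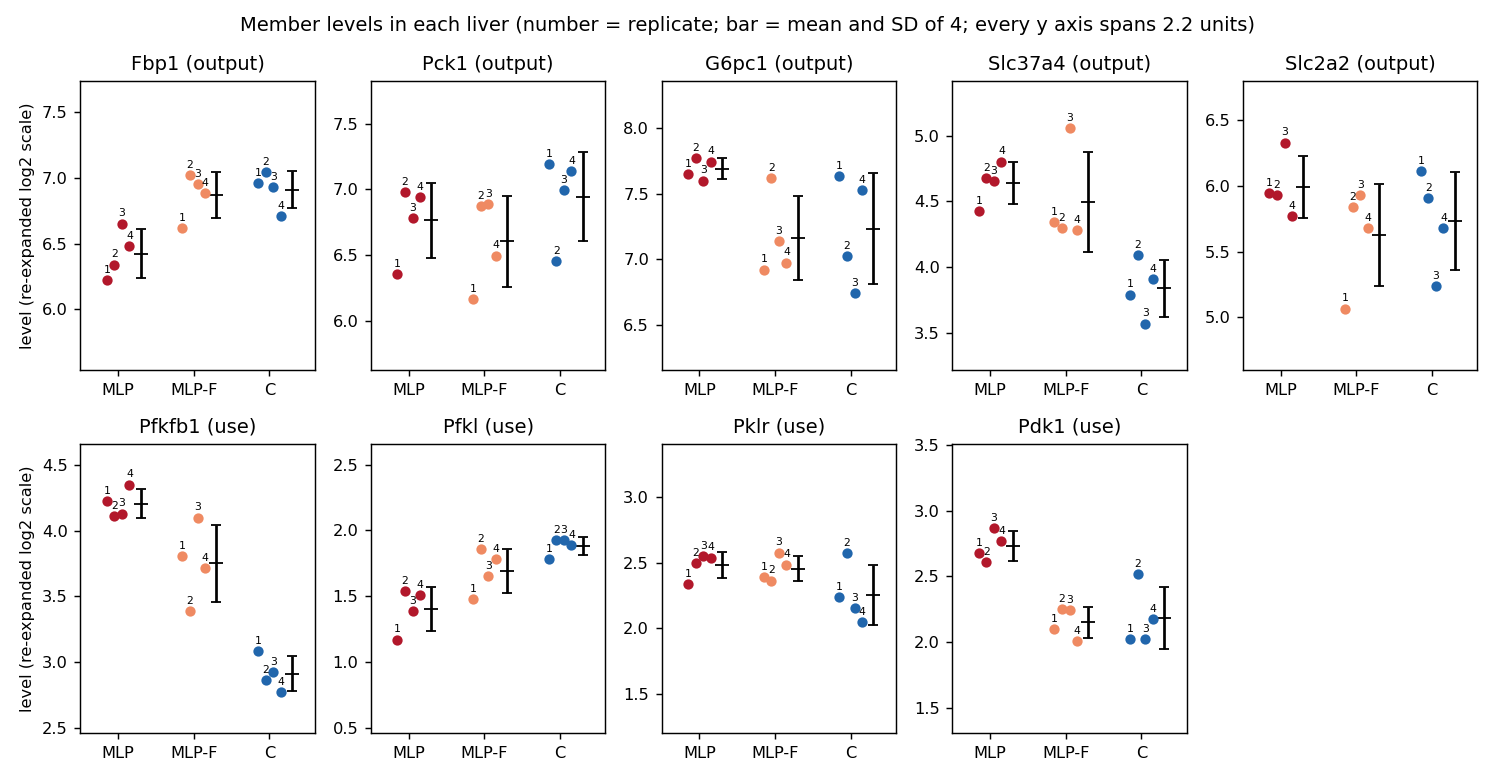
Level of each of the 9 genes in each liver on the re-expanded log2 scale, with MLP, MLP-F and C from left to right, the replicate number at each point, and bars for the mean and SD of 4 livers. Every vertical axis spans the same number of units, and for Pfkfb1 the MLP livers lie above the MLP-F livers and these above the C livers.

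Promoter sequences are shown for the gene with the clearest difference and for 3 output and use genes whose window held a TATA box or a cAMP response element variant. Each is a RefSeq window of assembly GRCr8, on the plus strand, with 250 bases before and 50 after the listed start. Positions count from the listed start, with -1 for the base before it. The windows are chrX:22941926-22942225 for Pfkfb1, chr3:182348322-182348621 for Pck1, chr10:86807409-86807708 for G6pc1 and chr2:176841014-176841313 for Pklr. Capitals mark the match, a variant of the cAMP response element in Pck1 and a TATA box in G6pc1 and Pklr.
Pfkfb1: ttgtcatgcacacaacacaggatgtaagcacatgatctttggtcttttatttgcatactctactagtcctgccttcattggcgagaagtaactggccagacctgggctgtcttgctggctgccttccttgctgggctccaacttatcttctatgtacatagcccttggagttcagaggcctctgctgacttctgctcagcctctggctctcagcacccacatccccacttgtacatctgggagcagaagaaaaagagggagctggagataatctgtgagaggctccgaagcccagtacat
Pck1: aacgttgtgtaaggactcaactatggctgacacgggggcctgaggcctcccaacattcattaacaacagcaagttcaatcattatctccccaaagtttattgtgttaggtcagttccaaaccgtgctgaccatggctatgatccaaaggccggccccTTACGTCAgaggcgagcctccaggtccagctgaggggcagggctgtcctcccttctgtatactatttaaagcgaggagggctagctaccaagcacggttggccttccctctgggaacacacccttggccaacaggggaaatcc
G6pc1: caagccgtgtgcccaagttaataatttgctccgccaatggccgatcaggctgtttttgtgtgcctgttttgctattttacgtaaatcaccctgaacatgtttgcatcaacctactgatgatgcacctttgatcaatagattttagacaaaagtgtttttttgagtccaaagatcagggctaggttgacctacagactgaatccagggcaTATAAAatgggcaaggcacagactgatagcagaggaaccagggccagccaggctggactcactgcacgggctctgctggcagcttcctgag
Pklr: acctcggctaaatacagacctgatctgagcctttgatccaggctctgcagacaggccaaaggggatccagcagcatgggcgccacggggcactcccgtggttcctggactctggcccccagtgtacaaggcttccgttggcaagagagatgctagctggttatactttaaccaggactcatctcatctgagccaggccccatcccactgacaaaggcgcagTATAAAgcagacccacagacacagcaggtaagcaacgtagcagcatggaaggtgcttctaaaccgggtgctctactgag

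The motifs were searched as exact letters on both strands in the windows of all 9 genes, 10 windows since Slc37a4 has 2. TTACGTCA, the cAMP response element variant, began at -93 in Pck1 and was present in 0.807% of all 33469 windows of the table. TATAAA began at -41 in G6pc1 and at -29 in Pklr and was present in 14.2% of windows. TGTTCT, the half-site of the glucocorticoid receptor, began at -153 in Slc2a2 and was present in 20.7%. The full cAMP response element TGACGTCA (1.83% of windows), the E-box CACGTG (6.42%), the forkhead motif GTAAACA (3.78%) and the HNF4 motif CAAAGTCCA (0.391%) were in none of the 10. No searched motif was in the windows of Pfkfb1, Slc37a4, Pdk1, Fbp1 or Pfkl, the 5 genes called between MLP and C. Sequence outside these short windows was not searched. The Pfkfb1 window starts at 22941926, inside a gene that begins at 22936038. The windows of Slc2a2 (113540120), Pklr (176841014) and Fbp1 (2213457) also start inside their genes, which begin at 113537884, 176840779 and 2212941. So does the later Slc37a4 window (53619958, in a gene that begins at 53619952). A match is a description of letters, and bound factors were not measured.

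Pfkfb1, the liver form of the enzyme that both makes and breaks fructose 2,6-bisphosphate, the small molecule that turns phosphofructokinase on and fructose bisphosphatase off, had the clearest difference. Its level was 4.23, 4.11, 4.13 and 4.35 in the MLP livers, 3.81, 3.39, 4.10 and 3.71 in the MLP-F livers, and 3.09, 2.86, 2.92 and 2.77 in the C livers. The 3 groups followed each other without overlap, and the distance between the lowest MLP liver and the highest C liver was 1.02. The lowest MLP liver was only 0.0087 above the highest MLP-F liver, MLP-F replicate 3.

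Pfkfb1 was higher by 1.29 in MLP than in C (SE 0.13, 95% interval 1.01 to 1.57, limma adjusted p = 0.000888), about 2.45-fold, and its p ranked 9 of 15753 probes. The call was made in each of 21 other fits, with a highest adjusted p of 0.0107 without C replicates 1 and 4. It was higher by 0.84 in MLP-F than in C (SE 0.13, 95% interval 0.56 to 1.12, limma adjusted p = 0.0242), about 1.79-fold, rank 21. That call was lost, with differences of 0.72 to 0.86, when 1 liver was left out, either C replicate 2 (adjusted p = 0.0580), 3 (0.0506) or 4 (0.0875), or MLP-F replicate 1 (0.0784), 3 (0.0595) or 4 (0.0522). It was also lost without C replicates 1 and 4 together (0.104) and in a fit of the MLP-F and C livers alone (0.122), while without MLP-F replicate 2 the difference was 0.96 (adjusted p = 0.00311). MLP exceeded MLP-F by 0.45 (95% interval 0.17 to 0.73), which missed the threshold (limma adjusted p = 0.0591), passed it without MLP-F replicate 3 (0.57, adjusted p = 0.0142) or with probes above the 50th percentile alone (adjusted p = 0.0402), and was 0.33 without MLP-F replicate 2 (adjusted p = 0.0770). The absence of overlap between MLP-F and C, seen for Pfkfb1 and Slc37a4, held for 6.27% of all probes, and that between MLP and MLP-F, seen for Pfkfb1 and Pdk1, for 12% of all probes.

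Pfkl encodes the liver subunit of phosphofructokinase, which commits sugar phosphate to glycolysis and is the enzyme that fructose 2,6-bisphosphate activates. Its level was 1.17, 1.54, 1.39 and 1.51 in the MLP livers, 1.48, 1.86, 1.65 and 1.78 in the MLP-F livers and 1.78, 1.93, 1.93 and 1.89 in the C livers. All 4 MLP livers lay below all C livers, and the MLP-F livers overlapped both.

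Pfkl was lower by 0.48 in MLP than in C (difference -0.48, SE 0.094, 95% interval -0.69 to -0.27, limma adjusted p = 0.0173). Pfkl and Pfkfb1 thus differed in opposite directions between these groups. The call on Pfkl was lost without C replicates 1 and 4 (-0.53, adjusted p = 0.0713) and in none of the other 20 fits. The difference was -0.19 for MLP-F against C (95% interval -0.40 to 0.02, adjusted p = 0.380) and -0.29 for MLP against MLP-F (95% interval -0.50 to -0.08, adjusted p = 0.0985). Over the 12 livers Pfkl and Pfkfb1 had a Pearson correlation of -0.85, a description over livers of 3 litters.

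Pklr, the liver pyruvate kinase that closes glycolysis, was measured at 2.34, 2.50, 2.55 and 2.54 in MLP, 2.39, 2.36, 2.58 and 2.48 in MLP-F and 2.24, 2.57, 2.16 and 2.05 in C. One C liver, replicate 2, lay above all MLP livers and the other C livers lay below them. The difference of MLP from C was 0.23 (95% interval 0.01 to 0.45, unadjusted p = 0.0437, limma adjusted p = 0.268), and it was 0.33 without C replicate 2 (adjusted p = 0.0367) but 0.12 without C replicates 1 and 4 (adjusted p = 0.789). It was 0.20 for MLP-F against C (95% interval -0.02 to 0.42, adjusted p = 0.386) and 0.027 for MLP against MLP-F (95% interval -0.19 to 0.25, adjusted p = 0.941).

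Pdk1 encodes a pyruvate dehydrogenase kinase, which turns off the complex that passes pyruvate from glycolysis into the mitochondrial cycle. It was grouped with glucose use by the step it acts on, although it restrains that step. Its level was 2.68, 2.61, 2.87 and 2.77 in the MLP livers, 2.10, 2.25, 2.24 and 2.01 in the MLP-F livers and 2.02, 2.51, 2.02 and 2.18 in the C livers. The MLP livers lay above all 8 others, and the MLP-F and C livers overlapped.

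Pdk1 was higher by 0.55 in MLP than in C (SE 0.11, 95% interval 0.31 to 0.78, limma adjusted p = 0.0173) and by 0.58 in MLP than in MLP-F (SE 0.11, 95% interval 0.34 to 0.81, limma adjusted p = 0.00994), about 1.46-fold and 1.49-fold. The call against MLP-F was made in each of 21 other fits, with a highest adjusted p of 0.0341. The call against C was lost without C replicate 1 (0.49, adjusted p = 0.0501), MLP replicate 3 (0.50, 0.0548) or MLP replicate 4 (0.53, 0.0519), and without C replicates 1 and 4 (0.46, 0.137). MLP-F differed from C by -0.032 (95% interval -0.27 to 0.20, adjusted p = 0.925).

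**Figure D2:**
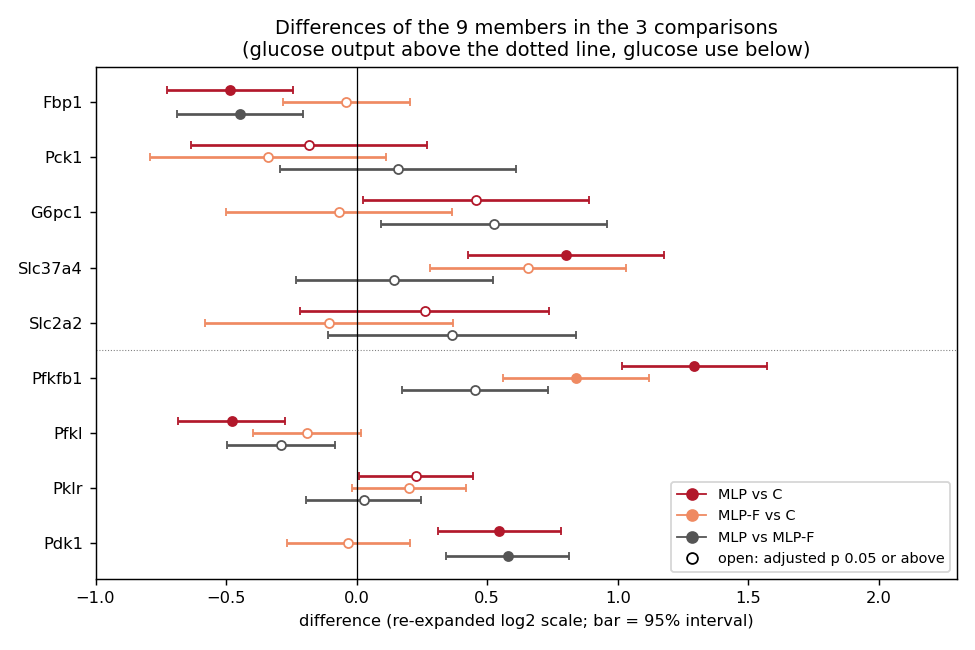
Difference of each gene for MLP against C, MLP-F against C and MLP against MLP-F on the re-expanded log2 scale, with 95% intervals from limma and filled points where the adjusted p was under 0.05. The largest is Pfkfb1 at 1.29 for MLP against C, and Pdk1 differs for both comparisons of MLP but lies near 0 for MLP-F against C.

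Fbp1, the fructose bisphosphatase of liver that opposes phosphofructokinase in glucose production and is blocked by fructose 2,6-bisphosphate, was the output gene called lower. Its level was 6.22, 6.34, 6.65 and 6.48 in the MLP livers, 6.62, 7.02, 6.95 and 6.88 in the MLP-F livers and 6.96, 7.04, 6.93 and 6.71 in the C livers. The MLP livers lay below all C livers by a distance of only 0.056, and MLP replicate 3 lay just above MLP-F replicate 1.

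Fbp1 was lower by 0.49 in MLP than in C (difference -0.49, SE 0.11, 95% interval -0.73 to -0.24, limma adjusted p = 0.0325), about 1.40-fold, and by 0.45 in MLP than in MLP-F (difference -0.45, SE 0.11, 95% interval -0.69 to -0.20, limma adjusted p = 0.0354). MLP-F and C differed by -0.040 (95% interval -0.28 to 0.20, adjusted p = 0.909). Both calls were near the threshold. Against C, leaving out 1 liver lost the call for C replicates 1, 2 and 3 (adjusted p of 0.0817, 0.0825 and 0.0702 in that order) and for MLP replicates 1, 2 and 4 (0.0804, 0.0954 and 0.0655). It was also lost without C replicates 1 and 4 together (0.0774) and with no filter on dim probes (0.0522), with differences between -0.56 and -0.42 throughout. Against MLP-F, leaving out 1 liver lost it for MLP replicates 1, 2 and 4 (0.0903, 0.0953 and 0.0649) and for MLP-F replicates 2, 3 and 4 (0.0655, 0.0794 and 0.0851), as did no filter (0.0558) and a fit of the MLP and MLP-F livers alone (0.0539). Fbp1 and Pfkl, the pair of opposed enzymes, had a Pearson correlation of 0.83 over the 12 livers. Both were called lower in MLP than in C, so differences between litters enter this value.

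Pck1, the cytosolic phosphoenolpyruvate carboxykinase that draws oxaloacetate into glucose production, showed no called difference. It was measured at 6.35, 6.98, 6.78 and 6.94 in MLP, 6.16, 6.87, 6.88 and 6.50 in MLP-F and 7.19, 6.45, 6.99 and 7.14 in C. The groups overlapped widely, with the lowest C liver, replicate 2, below 3 of the 4 MLP livers. The differences were -0.18 for MLP against C (95% interval -0.64 to 0.27, limma adjusted p = 0.741), -0.34 for MLP-F against C (95% interval -0.79 to 0.11, adjusted p = 0.489) and 0.16 for MLP against MLP-F (95% interval -0.30 to 0.61, adjusted p = 0.782). Without C replicates 1 and 4, both high in Pck1, the difference of MLP from C was 0.038 (adjusted p = 0.979).

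G6pc1, the catalytic subunit of the glucose phosphatase that frees glucose at the end of the pathway, was uniform among MLP livers and varied in both other groups. Its level was 7.65, 7.77, 7.60 and 7.74 in MLP (7.69 ± 0.079), 6.92, 7.62, 7.14 and 6.98 in MLP-F (7.16 ± 0.32), and 7.63, 7.02, 6.74 and 7.53 in C (7.23 ± 0.42). MLP-F replicate 2 and C replicate 1 lay within the MLP range and C replicate 4 just under it, while the other 5 livers of those groups were at 7.14 or lower.

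G6pc1 differed by 0.46 between MLP and C (95% interval 0.03 to 0.89, unadjusted p = 0.0396, limma adjusted p = 0.254) and by 0.53 between MLP and MLP-F (95% interval 0.09 to 0.96, unadjusted p = 0.0212, adjusted p = 0.152). MLP-F differed from C by -0.069 (95% interval -0.50 to 0.36, adjusted p = 0.911). The livers that stood apart moved these values: without C replicates 1 and 4 the difference of MLP from C was 0.81 (adjusted p = 0.0620), and without MLP-F replicate 2 the difference of MLP from MLP-F was 0.68 (adjusted p = 0.0461).

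Slc37a4 encodes the transporter that carries glucose 6-phosphate into the endoplasmic reticulum, where the G6pc1 enzyme sits. Its level was 4.42, 4.67, 4.65 and 4.80 in the MLP livers, 4.34, 4.29, 5.06 and 4.28 in the MLP-F livers and 3.79, 4.09, 3.57 and 3.90 in the C livers. Every C liver was below all livers of the low protein groups, and MLP-F replicate 3 was the highest of the 12.

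Slc37a4 was higher by 0.80 in MLP than in C (SE 0.17, 95% interval 0.42 to 1.18, limma adjusted p = 0.0248), about 1.74-fold. The call was lost without C replicate 1 (0.78, adjusted p = 0.0638), C replicate 3 (0.71, 0.0638), MLP replicate 2 (0.79, 0.0704), MLP replicate 3 (0.80, 0.0663) or MLP replicate 4 (0.75, 0.0735), and without C replicates 1 and 4 (0.81, 0.131). MLP-F exceeded C by 0.66 (95% interval 0.28 to 1.03), which did not pass (limma adjusted p = 0.109) and did so without MLP-F replicate 2 (0.72, adjusted p = 0.0477). MLP and MLP-F differed by 0.14 (95% interval -0.23 to 0.52, adjusted p = 0.753). Slc37a4 and Pfkfb1 had a Pearson correlation of 0.87 over the 12 livers, and Slc37a4 and Pklr one of 0.78, values that differences between litters enter.

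Slc2a2, the low affinity glucose carrier of the hepatocyte surface that passes glucose in both directions, showed no called difference. It was measured at 5.95, 5.93, 6.33 and 5.77 in MLP, 5.07, 5.84, 5.93 and 5.68 in MLP-F and 6.11, 5.91, 5.24 and 5.68 in C. The ranges overlapped in every comparison, and MLP-F replicate 1 and C replicate 3 were the lowest livers. The difference was 0.26 for MLP against C (95% interval -0.22 to 0.74, limma adjusted p = 0.620), -0.11 for MLP-F against C (95% interval -0.58 to 0.37, adjusted p = 0.873) and 0.37 for MLP against MLP-F (95% interval -0.11 to 0.84, adjusted p = 0.416). With 1 liver left out these ran from 0.095 to 0.39, from -0.27 to 0.082 and from 0.18 to 0.47 in that order, and without C replicates 1 and 4 the difference of MLP from C was 0.42 (adjusted p = 0.599).

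To set glucose output against glucose use, each probe was centred on its mean over the 12 livers and averaged within a role, as a description with no test. The mean of the 4 use genes was 0.095, 0.18, 0.23 and 0.28 in the MLP livers, -0.064, -0.043, 0.13 and -0.011 in the MLP-F livers, and -0.23, -0.038, -0.25 and -0.29 in the C livers. All MLP livers lay above all C livers on this mean, which joins 3 genes with a positive difference to Pfkl with a negative one. It holds genes already called between these groups, Pfkfb1 with the largest difference, so it is no separate result. Pdk1 is counted as use although it restrains its step. Pfkfb1 is counted as use although its enzyme both makes and breaks the activator of phosphofructokinase. A higher mean is therefore not a measure of higher glucose use. The mean of the 5 output genes was -0.077, 0.14, 0.21 and 0.15 in MLP, -0.37, 0.13, 0.20 and -0.13 in MLP-F, and 0.14, -0.093, -0.30 and -0.0034 in C, and the 3 groups overlapped. Output minus use was between -0.17 and -0.018 in MLP livers, between -0.31 and 0.18 in MLP-F livers and between -0.055 and 0.37 in C livers, with overlap in each comparison.

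**Figure D3:**
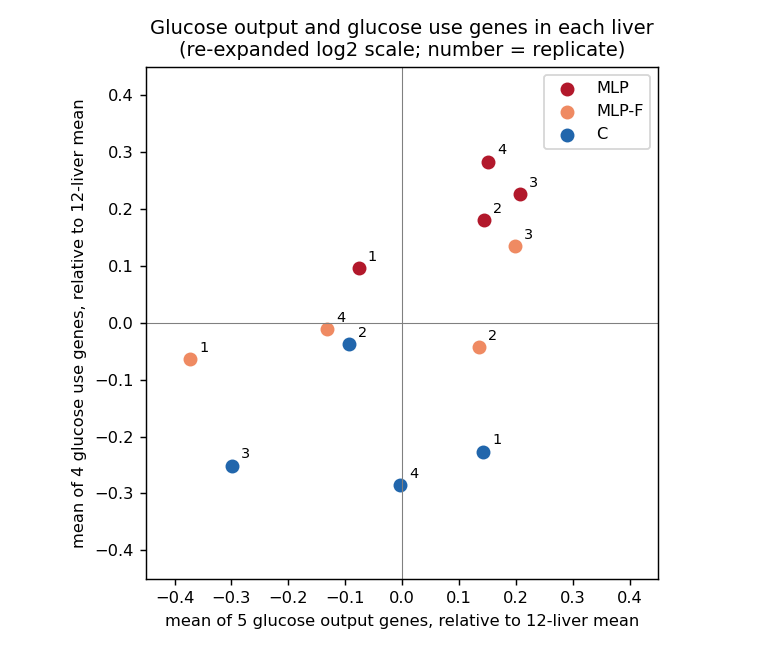
Mean of the 5 glucose output genes (horizontal) against the mean of the 4 glucose use genes (vertical) in each liver, both on the re-expanded log2 scale relative to the mean of 12 livers, with the replicate number at each point. The MLP livers lie between 0.095 and 0.28 on the vertical axis and the C livers between -0.29 and -0.038, while on the horizontal axis the groups overlap. The use genes include Pdk1, which restrains its step, and Pfkfb1, whose enzyme both makes and breaks the activator of phosphofructokinase.

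Genes next to the 9 in glucose metabolism were taken from lists of 119 genes, of which 97 had a probe and 92, with 96 probes, passed the filter. Genes without a matched probe were not analysed here. In MLP against C limma called 0 of the 96 probes, with 28 at an unadjusted p under 0.05 (29.2%, against 17.3% of all probes tested). In MLP-F against C it also called 0, with 19 at an unadjusted p under 0.05 (19.8%, against 14.9% of all probes). In MLP against MLP-F it called 10 (10.4%, against 6.58% of all probes), 7 higher and 3 lower in MLP, with 34 at an unadjusted p under 0.05 (35.4%, against 19.5% of all probes).

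The 7 genes higher in MLP than in MLP-F belonged to 4 lists. In the gluconeogenesis list 3 of 12 probes were called higher and 0 lower, with a median difference of 0.0045. They were Slc25a11, the mitochondrial carrier that exchanges malate for oxoglutarate, Gpd1, the cytosolic glycerol phosphate dehydrogenase, and Mdh1, the cytosolic malate dehydrogenase. Slc25a11 was measured at 3.55, 3.32, 3.24 and 3.27 in MLP livers, 2.19, 2.89, 2.19 and 2.20 in MLP-F livers and 3.28, 2.95, 2.91 and 3.18 in C livers. The MLP-F livers were the low ones, below all livers of both other groups, and MLP exceeded MLP-F by 0.98 (SE 0.15, adjusted p = 0.00474), while MLP-F differed from C by -0.72 (adjusted p = 0.0760). Gpd1 averaged 4.73 ± 0.31 in MLP and 3.91 ± 0.22 in MLP-F, with a difference of 0.82 (adjusted p = 0.0130), and Mdh1 averaged 4.71 ± 0.14 in MLP and 4.08 ± 0.25 in MLP-F, with a difference of 0.62 (adjusted p = 0.0199). For both genes C lay between the low protein groups, at 4.19 ± 0.22 for Gpd1 and 4.35 ± 0.23 for Mdh1.

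Of the glycolysis list 1 of 15 probes was called in MLP against MLP-F, with a median difference of -0.043. This was Ldhb, a lactate dehydrogenase subunit, at 1.90, 2.75, 2.70 and 2.95 in MLP livers, 1.10, 1.36, 1.46 and 1.54 in MLP-F livers and 2.59, 1.83, 1.73 and 1.97 in C livers. MLP-F livers were again below all others, and the difference of MLP from MLP-F was 1.21 (SE 0.23, adjusted p = 0.0116). Of the pyruvate dehydrogenase complex, the target of Pdk1, 1 of 11 probes was called (median difference 0.068), Pdhb, which encodes a subunit of its first enzyme. It averaged 4.72 ± 0.049 in MLP and 4.13 ± 0.26 in MLP-F, a difference of 0.59 (adjusted p = 0.0183), with C between them at 4.39 ± 0.21.

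Regulators of hepatic glucose genes had 2 probes called higher and 1 lower of 24 in MLP against MLP-F, with a median difference of -0.0045. Foxo3, a forkhead factor restrained by insulin signalling, averaged 1.01 ± 0.097 in MLP and 0.60 ± 0.11 in MLP-F (difference 0.41, adjusted p = 0.00731). Creb3l3, a membrane-bound factor of the hepatocyte fasting response, averaged 5.59 ± 0.15 in MLP and 4.93 ± 0.29 in MLP-F (difference 0.66, adjusted p = 0.0213). Onecut1, the hepatocyte factor HNF6, was measured at 3.85, 3.71, 3.01 and 3.09 in MLP livers, 4.77, 4.74, 4.46 and 5.17 in MLP-F livers and 4.84, 5.0, 4.18 and 3.75 in C livers. Its MLP livers lay below all MLP-F livers and overlapped C, with a difference of -1.37 against MLP-F (SE 0.29, adjusted p = 0.0167) and of -1.03 against C (adjusted p = 0.0713).

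Galm, an enzyme of galactose entry, was called lower in MLP than in MLP-F (difference -0.54, adjusted p = 0.0365), 1 of 5 probes of its list (median difference -0.31), and Pgls, of the pentose phosphate pathway, likewise (difference -0.26, adjusted p = 0.0394), 1 of 4 (median difference -0.22). Of the 10 calls those on Slc25a11, Foxo3, Ldhb and Gpd1 were made in each of 21 other fits. The next values are adjusted p after a liver was left out. Pdhb was lost without MLP replicate 3 (0.0545) or MLP-F replicate 1 (0.0565), and Onecut1 without MLP replicate 3 (0.0535), MLP replicate 4 (0.0512) or MLP-F replicate 4 (0.0525). Mdh1 was lost without MLP replicate 2 (0.0582) or 4 (0.0584) or MLP-F replicate 1 (0.0569) or 4 (0.0620), and Creb3l3 without MLP replicate 2 (0.0587) or 3 (0.0660) or MLP-F replicate 1 (0.0522) or 4 (0.0616). Galm was lost without MLP replicate 1 (0.0607) or 2 (0.0913) or MLP-F replicate 1 (0.0995), 3 (0.0849) or 4 (0.0648), without C replicates 1 and 4 (0.0528), with no filter (0.0591), with the 2 groups alone (0.0599) and with a replicate block (0.0613). Pgls was lost without MLP replicate 1 (0.0828), 3 (0.108) or 4 (0.0798) or MLP-F replicate 1 (0.101), 3 (0.0681) or 4 (0.0782), without C replicates 1 and 4 (0.0582), with an intensity trend (0.166), with no filter (0.0540), with the 2 groups alone (0.0537) and with a replicate block (0.0829). The lists for glycogen (12 probes), sugar transporters (10 probes) and the other fructose-2,6-bisphosphate enzymes (3 probes) had 0 limma calls in all 3 comparisons. The last 3 probes, of Pfkfb2, Pfkfb3 and Pfkfb4, were dim, with group means from 0.14 to 0.32 near the filter level of 0.158. They could show little change. At an unadjusted p under 0.05 glycogen had 1 probe in MLP against C, 1 in MLP-F against C and 2 in MLP against MLP-F, the fructose-2,6-bisphosphate enzymes had 0, 0 and 1, and the transporters had 0 in each.

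**Figure D4:**
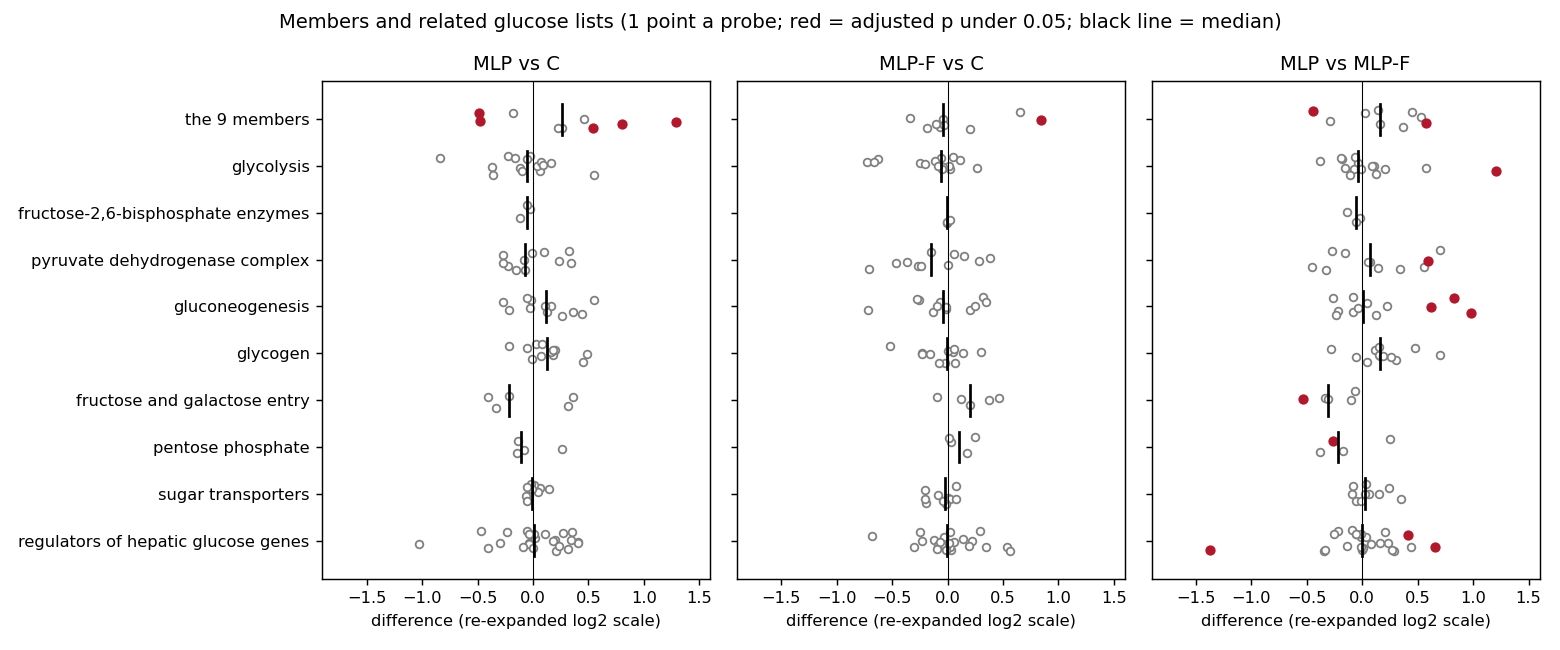
Differences of the 9 genes and of the related lists on the re-expanded log2 scale, 1 point a probe, for MLP against C, MLP-F against C and MLP against MLP-F, with red points at an adjusted p under 0.05 and a black line at the median. Red points lie only among the 9 genes for MLP against C (5) and MLP-F against C (1), and for MLP against MLP-F 10 stand in the related lists. The 9 genes and the lists were chosen with earlier results of these data known, so the contrast between them is a description only.

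Ldha, the lactate dehydrogenase subunit of glycolytic tissues, was singled out after its values were seen. Its level was 5.22, 5.60, 5.28 and 5.36 in the MLP livers, 5.25, 6.40, 5.01 and 5.24 in the MLP-F livers and 6.30, 6.29, 6.19 and 6.05 in the C livers. All livers of the low protein groups but MLP-F replicate 2 lay below the C livers. The difference was -0.84 for MLP against C (limma adjusted p = 0.0800) and -0.73 for MLP-F against C (adjusted p = 0.185). Without MLP-F replicate 2 these were -0.84 (adjusted p = 0.00183) and -1.04 (adjusted p = 0.00268). In that fit 8 of the 96 related probes were called in MLP-F against C, in place of 0. Calls over all 15753 probes rose as well, to 940 in place of 76, so the rise was not particular to the related probes.

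By Pearson correlation over the 12 livers, the named probes most like Pfkfb1 were Ptdss2 (0.94), Tns1 (0.94), Tp53i13 (0.93), Polrmt (0.93) and Gtpbp6 (0.91). The livers are of 3 litters, so differences between litters enter these values. As a description of genes chosen for this likeness, the difference of MLP from C was 0.67 for Ptdss2, 1.0 for Tns1, 0.77 for Tp53i13, 0.65 for Polrmt and 0.38 for Gtpbp6.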

How the data were processed

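Liver RNA of 12 pups was hybridised to Illumina RatRef-12 Expression BeadChips, 1 colour. Per the study's methods the authors normalized by quantiles and used beadarray and limma. Filtering of low quality probes is mentioned only in the caption of the study's supplementary heatmap. For the rule behind this filtering, any background correction and the package versions, nothing is given in the sources used here. The deposited log2 values of 22505 probes ran from 4.00 to 4.63, just above the logarithm of an offset of 16, and each was re-expanded to between 0.047 and 8.82. A table of 12 columns named by chip position matched no label and was not used. Gene symbols came from the platform annotation, updated through Entrez identifiers with RefSeq (13778 probes had 1 symbol and 8727 none).

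A filter took out probes whose mean was at or under the 30th percentile (0.158), which left 15753. A mean per group was fitted by lmFit, contrasts.fit and eBayes of limma (3.58.1, R 4.3.3), giving 9 residual degrees of freedom, and 3 two-sided contrasts were adjusted by the Benjamini-Hochberg method over all kept probes. The script was tested on simulated data. Precision is limited by the 4 arrays a group. Alternatives were other scales, filters, normalization and variance models, fits of 2 groups, each liver left out in turn, C replicates 1 and 4 left out together, and the replicate number as a block. Named genes were all 9 members in every contrast, the called probes of each related list, 5 probes most correlated with the member of smallest p, and exceptions stated as such. The members, lists and rules were chosen with earlier results of these data known. Motifs were exact matches in RefSeq promoter windows of GRCr8.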

Additional observations from a re-analysis of the deposited data

Results flagged for a closer look

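Slc37a4 in MLP-F replicate 3 was 5.06, far above the other 3 MLP-F livers, the nearest of which was at 4.34 and the lowest at 4.28. The gap to the nearest liver was 0.927 of the range of the group, above the 95% critical value of Dixon's test for 4 samples. The 9 genes in 3 groups gave 27 such tests, of which this 1 passed, and chance passes about 1 in 20. The same liver was also the highest MLP-F liver for Pfkfb1, at 4.10.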

How the results depend on the processing

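No called difference of the 9 genes or of the 10 called related genes changed direction under the 21 alternatives, which were not run for the 5 genes most like Pfkfb1. Counts of the 9 genes called in MLP against C were 5, from 2 (without C replicate 1 or MLP replicate 4) to 5 with 1 liver left out (3 without C replicate 3, MLP replicate 2 or MLP replicate 3), and 1 without C replicates 1 and 4. In MLP-F against C the count was 1, from 0 to 2 with 1 liver left out, and 0 without C replicates 1 and 4 or with the 2 groups alone. In MLP against MLP-F it was 2, from 1 to 2 with 1 liver left out, and 1 with no filter on dim probes or with the 2 groups alone. Its highest value was 3, with Pfkfb1 gained above the 50th percentile and Pfkl gained with a replicate block. Related probes called in MLP against C were 0, from 0 to 2 with 1 liver left out, and 4 above the 50th percentile, 2 with the 2 groups alone, 2 with an intensity trend and 1 with a replicate block. In MLP-F against C they were 0, from 0 to 8, and in MLP against MLP-F 10, from 5 to 15. Over all probes MLP against C gave 685, from 335 (without MLP replicate 2) to 814 with 1 liver left out (391, 386 and 369 without C replicate 1, MLP replicate 3 and MLP replicate 4), and 211 without C replicates 1 and 4. MLP-F against C gave 76, from 1 (without MLP-F replicate 3) to 940 (without MLP-F replicate 2), with 11 to 41 after leaving out any other liver but C replicate 1, and 37 with no filter, 6 with the 2 groups alone, 43 with an intensity trend, 47 with robust eBayes, 14 without C replicates 1 and 4 and 29 with a replicate block. MLP against MLP-F gave 1037, from 619 (without MLP-F replicate 1) to 1355 (without MLP-F replicate 2), and from 621 to 672 without MLP replicate 2, 3 or 4 or MLP-F replicate 4. The causes were not tested.

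The replicate numbers of the labels name no shared litter or day. Of 12 pairs of livers with the same number 1 had correlated deviations above 0.1 (-0.217 to 0.143), so the numbers were not taken as a pairing. With the replicate number as a block Slc37a4 was not called in MLP against C (adjusted p = 0.0571), Galm (0.0613) and Pgls (0.0829) were not called in MLP against MLP-F, and Pfkl was called in MLP against MLP-F (-0.29, adjusted p = 0.0194), with 562 probes called in MLP against C and 912 in MLP against MLP-F. Each of the 9 genes rests on 1 probe, and dim probes understate their change.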
